A study of Mus musculus with 4 samples.

Results

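The 10 genes described here are the NF-kB subunits Nfkb1, Nfkb2, Rel and Relb and 6 genes that hold NF-kB signalling or its inflammatory output in check, Nfkbia, Nfkbie, Nfkbiz, Nfkbid, Tnfaip3 and Zfp36. They were taken by symbol from the 27998 features of the deposited matrices, and all 10 were present. Single-cell transcriptomes, in 4 libraries, had been made from day 4 orthotopic tumours of the MT4788 mammary line in FVB mice of WT genotype. They followed magnetic enrichment for CD45, with 10000 cells loaded per 10x Genomics 3' library. Each treatment had 1 library. The control library was treated with Saline+PBS and the phenformin library with Saline+Phenformin, while the other libraries came from Poly I:C+PBS (called poly I:C below) and from Poly I:C+Phenformin (the combination). Poly I:C mimics viral double-stranded RNA and triggers Toll-like and RIG-I-like receptors, and phenformin, a biguanide like metformin, blocks mitochondrial respiration at its first complex. MT4788 is a single line, and the number of mice behind each library is not given in the sources used here. With 1 library per treatment the values below carry no replicate check, no p-value was computed, and all intervals are 95% intervals that cover counting error only.

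NF-kB factors are dimers of Rel-family proteins that are held in the cytoplasm by inhibitory IkB proteins. Signals from Toll-like, cytokine and antigen receptors lead to phosphorylation and breakdown of the IkB proteins, and the freed dimers enter the nucleus. Several of the genes they switch on encode their own inhibitors, so that transcripts such as Nfkbia and Tnfaip3 are widely read as markers of recent pathway activity, while the myeloid cells of tumours are a main site of that activity.

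Barcodes that showed 200 genes or more, and mitochondrial UMIs below 20%, were taken as cells; they numbered 6095 in control, 5453 in phenformin, 6619 in poly I:C and 8268 in the combination, and held 57332308 to 76070132 UMIs per library. Cells were assigned by raw UMIs of a few genes. The neutrophil gate (S100a8 plus S100a9 of at least 5, Csf3r plus Cxcr2 of at least 1) held 218, 178, 211 and 280 cells in the same order, and the macrophage gate (Csf1r, Cd68 and Adgre1 summing to at least 3) held 2030, 2268, 2641 and 2759. The dendritic gate (Flt3 of at least 1) held 300, 269, 203 and 218 cells, the T gate (Cd3d, Cd3e and Cd3g summing to at least 2) held 1626, 1493, 2159 and 3064, and the tumour gate (Krt5 plus Krt14 of at least 5, no Ptprc) held 376, 209, 592 and 420. Gates could overlap, and no gate took 1266 to 1939 cells per library. In lists of markers that include the gating genes, all 8 neutrophil, all 8 macrophage, all 8 dendritic and all 7 T markers had UMIs in their own gate in every library. This does not tell the gates apart, since all 8 macrophage markers also had UMIs in each other gate in every library.

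The neutrophil gate was mixed. Of its cells, 16.1% in control, 13.5% in phenformin, 37.0% in poly I:C and 22.1% in the combination also passed another gate, and these deep droplets held 49.2%, 51.2%, 75.8% and 59.8% of its UMIs. The summed level of 8 macrophage markers in the gate was 1839 CPM (UMIs of a gene per 1e6 UMIs of the gate) in control, 5418 in phenformin, 10030 in poly I:C and 10090 in the combination. In its cells of no other gate the same sum was 575, 786, 764 and 1170 CPM, with no marker at 0. The 8 neutrophil markers summed to 42400, 64110, 60890 and 137200 CPM in those cells, and 6 tumour markers to 640, 13.8, 1084 and 29.0. The part of these differences in the neutrophil values below was not tested. Neutrophil values are therefore given for the whole gate and, for most of the 10 genes, also for its cells of no other gate. These numbered 183, 154, 133 and 218 and held 361322 to 517953 UMIs per library. Below, neutrophil values of genes other than the 10 are for the whole gate only. In the dendritic gate 31.0% to 47.8% of cells passed another gate as well, in the macrophage gate 9.83% to 14.8%, in the T gate 8.06% to 13.9% and in the tumour gate at most 1.86%.

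Promoter sequence was looked up because these genes include known targets of the factors they encode or restrain. RefSeq windows on GRCm38.p6, from 250 bases before to 50 after a gene's start, were at hand for 7 of the 10 genes, and a match to the kB consensus on either strand lay in those of 6: Nfkb2, Rel, Nfkbia, Nfkbid, Nfkbie and Tnfaip3. Zfp36 had none in its window. Over all 27025 genes with a window, 5.14% had a match, and 0.644% had at least 2 in 1 window. The windows of Nfkbia, Rel and Tnfaip3 are printed 5' to 3' with the matches in capitals, since the values of these genes are those on which the comparisons below turn. The Nfkbia window is chr12:55492598-55492897 on the minus strand with a match that begins at -29, the Rel window is chr11:23770920-23771219 on the minus strand with overlapping matches that begin at -92 and -91, and the Tnfaip3 window is chr10:19015361-19015660 on the minus strand with matches that begin at -125 and -12.
Nfkbia: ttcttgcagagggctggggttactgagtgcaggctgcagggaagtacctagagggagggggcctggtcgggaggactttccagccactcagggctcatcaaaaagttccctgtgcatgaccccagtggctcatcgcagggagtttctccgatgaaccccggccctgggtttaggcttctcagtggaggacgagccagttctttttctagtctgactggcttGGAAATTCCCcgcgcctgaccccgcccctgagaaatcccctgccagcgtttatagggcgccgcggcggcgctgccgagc
Rel: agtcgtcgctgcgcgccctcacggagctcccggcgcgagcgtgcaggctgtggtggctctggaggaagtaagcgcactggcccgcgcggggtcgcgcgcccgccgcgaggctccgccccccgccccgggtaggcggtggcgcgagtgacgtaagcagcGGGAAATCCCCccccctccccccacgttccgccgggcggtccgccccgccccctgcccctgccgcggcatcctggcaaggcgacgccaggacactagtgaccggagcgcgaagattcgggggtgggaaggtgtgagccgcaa
Tnfaip3: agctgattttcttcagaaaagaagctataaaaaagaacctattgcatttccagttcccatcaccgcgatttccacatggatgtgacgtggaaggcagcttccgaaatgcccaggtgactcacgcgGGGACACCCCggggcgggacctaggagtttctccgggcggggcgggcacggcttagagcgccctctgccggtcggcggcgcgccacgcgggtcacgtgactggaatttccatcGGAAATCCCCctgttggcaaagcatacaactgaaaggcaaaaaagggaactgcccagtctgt
A match is a description of the letters in the window and not a measured binding site.

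Among the subunits, Nfkb1 lies on chromosome 3 (GRCm38, chr3:135584655-135691547, minus strand) and encodes the precursor of a subunit that partners Rela and Rel. In control it stood at 383 CPM in the T gate, 378.5 in the neutrophil gate, 288 in the macrophage gate, 283.5 in the dendritic gate and 109 in the tumour gate. The ranges over the 4 libraries overlapped among the 4 immune gates, and only the tumour gate, at 65.5 to 109 CPM, lay below them. Rel (chr11:23736847-23770970, minus strand), the subunit best known in lymphocytes and dendritic cells, was highest on average in the dendritic gate, with 191 to 351 CPM. That range overlapped those of the neutrophil gate (123.5 to 240 CPM), the T gate (117 to 219 CPM) and the macrophage gate (114 to 199 CPM), and the tumour gate stood apart at 18.0 to 24.9 CPM.

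Nfkb2 and Relb form the dimer of the alternative pathway, which acts in dendritic cell maturation and lymphoid organs. Nfkb2 (chr19:46304320-46312385, plus strand) ranged from 75.0 to 95.9 CPM in the T gate, 51.4 to 87.5 in the neutrophil gate, 59.9 to 73.6 in the dendritic gate, 47.5 to 55.6 in the macrophage gate and 13.9 to 17.5 in the tumour gate. Relb (chr7:19606217-19629438, minus strand) was highest in the dendritic gate, at 69.7 to 89.6 CPM, a range that no other gate reached. The T gate followed with 46.7 to 48.1 CPM, the spread of the neutrophil gate (37.8 to 59.1 CPM) covered it, and the macrophage gate (32.8 to 37.2 CPM) and tumour gate (11.7 to 16.4 CPM) were lower.

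The 6 inhibitors were each highest on average in the neutrophil gate. Nfkbia (chr12:55489410-55492647, minus strand) encodes the IkB protein that is rebuilt after each round of activation. It stood at 1527 to 2589 CPM in the neutrophil gate, against 403 to 472 in the macrophage gate, 324 to 461 in the dendritic gate, 364 to 414 in the T gate and 135 to 175 in the tumour gate. The neutrophil range lay above all others, while those of the macrophage, dendritic and T gates overlapped. Nfkbiz (chr16:55811375-55838899, minus strand), a nuclear IkB protein that helps to induce secondary response genes, ranged from 244 to 937 CPM in the neutrophil gate and from 55.9 to 115 in the T gate. Its tumour-gate range of 57.4 to 64.5 CPM overlapped that of the T gate and lay above those of the macrophage gate (40.4 to 55.9 CPM) and the dendritic gate (38.3 to 44.8 CPM). Nfkbid (chr7:30421732-30428746, plus strand), another nuclear IkB protein, ranged from 26.0 to 121 CPM in the neutrophil gate, from 12.4 to 28.8 over the macrophage, dendritic and T gates, where the T range reached that of the neutrophil gate, and from 0.935 to 1.31 in the tumour gate.

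Nfkbie (chr17:45555703-45563169, plus strand), an IkB protein that retains Rel-containing dimers, gave 79.7 to 102 CPM in the neutrophil gate and 71.3 to 89.0 in the macrophage gate, and these ranges overlapped. It was lower in the dendritic gate (45.6 to 57.3 CPM) and the T gate (38.5 to 58.8 CPM) and lowest in the tumour gate (1.42 to 3.64 CPM). Tnfaip3 (chr10:19000910-19015657, minus strand) encodes a ubiquitin-editing enzyme that shuts down signalling upstream of the IkB kinases. Its neutrophil range of 207 to 659 CPM overlapped that of the T gate at 302 to 438.5 CPM, and both lay above the macrophage gate (102.5 to 133 CPM), the dendritic gate (81.1 to 116 CPM) and the tumour gate (7.64 to 16.9 CPM). Zfp36 (chr7:28376784-28380253, minus strand) encodes tristetraprolin, which binds AU-rich elements and speeds the decay of cytokine transcripts. Its ranges overlapped in the 3 myeloid gates, with 291 to 783 CPM in the neutrophil gate, 310 to 461 in the macrophage gate and 317 to 435 in the dendritic gate. The T gate gave 91.5 to 112 CPM and the tumour gate 23.5 to 36.6. Levels were set side by side within a gene only, since 3' tag counts are not scaled to transcript length.

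**Figure D1:**
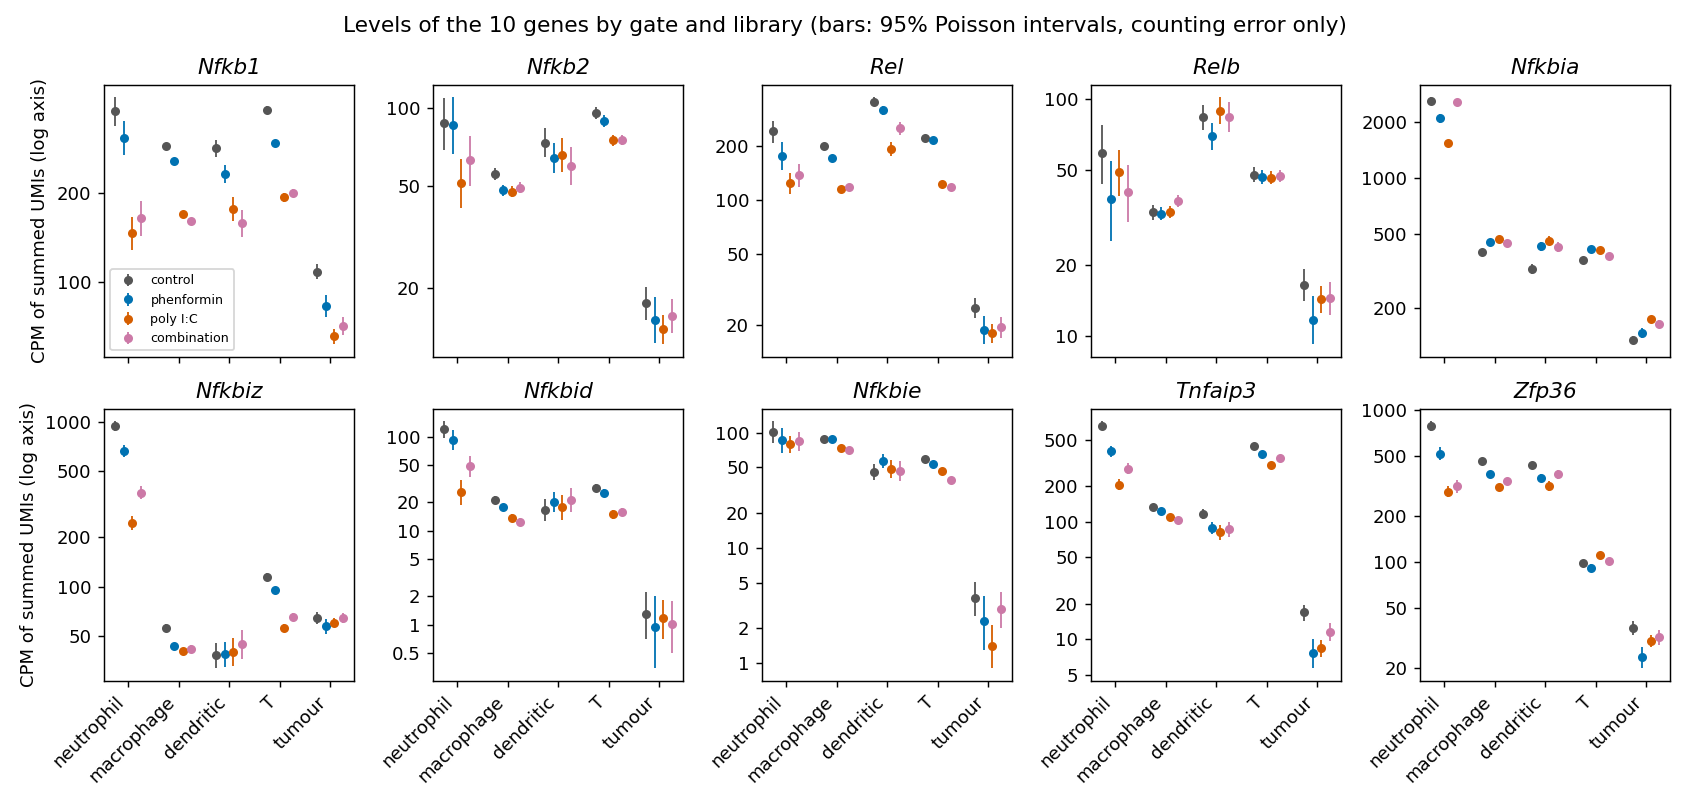
CPM of summed UMIs (log axis) of the 10 genes in the 5 gates (x axis), with 1 point per library and 95% Poisson intervals that cover counting error only. In these whole gates Nfkb1 and Rel were lower in the libraries with poly I:C (orange and pink) in the 4 immune gates, although Rel in dendritic cells of no other gate was not lower in the combination than in phenformin (1.003), Nfkbia stood highest in the neutrophil gate, and Relb stood highest in the dendritic gate.

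Poly I:C over control sets the library with the RNA mimic alone beside control. In whole gates Nfkb1 was lower in poly I:C in all 5 gates and Rel was lower by at least 1.5-fold in the 4 immune gates. Relb stayed within 0.829 to 1.07 of control in whole gates, and Nfkbia was higher in every gate but the neutrophil gate. In dendritic cells of no other gate Relb gave 1.31 (1.06 to 1.62). A gene counted as called when it differed at least 1.5-fold and had at least 50 CPM and 30 UMIs in the higher library. By this rule 8 of the 10 genes were lower and 0 were higher in the neutrophil gate, where all 10 passed the filter and where 19% of 3226 features were lower and 18.9% higher. Of the 8 genes that passed in the macrophage gate, 2 were lower against 4.3% of features, and 0 were higher against 3.31%. In the dendritic gate 2 of 7 were lower against 7.45% and 0 higher against 4.7%, and in the T gate 3 of 8 were lower against 6.97% and 0 higher against 5.58%. In the tumour gate 3 passed, 1 of them was lower against 11.8%, and 0 were higher against 1.47%. The genes below the filter had too few UMIs or too low a level to be called either way.

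Nfkb1 gave 378.5 CPM in control, 308 in phenformin, 146.5 in poly I:C and 165 in the combination in the neutrophil gate. It gave 288, 257, 170 and 160.5 CPM in the macrophage gate, 283.5, 232, 177 and 158 in the dendritic gate, and 383, 295, 193.5 and 200 in the T gate. The 2 libraries with poly I:C were thus the lower pair in each immune gate. The ratio of poly I:C to control was 0.387 (0.327 to 0.458) in the neutrophil gate, 0.590 (0.569 to 0.610) in the macrophage gate, 0.624 (0.557 to 0.699) in the dendritic gate and 0.505 (0.485 to 0.526) in the T gate. In neutrophil-gate cells of no other gate it was 0.235 (0.158 to 0.341), from 363, 299, 85.4 and 151 CPM. In the tumour gate, with 109, 83.1, 65.5 and 71.0 CPM, the ratio was 0.603 (0.553 to 0.657), and with TMM scaling it was 0.711 and no longer past 1.5-fold. In that gate TMM scaling moved every log2 ratio up by 0.24.

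Rel gave 199 CPM in control, 171 in phenformin, 114 in poly I:C and 118 in the combination in the macrophage gate. In the T gate it gave 219, 214, 122 and 117 CPM. Both libraries with poly I:C were lower than both without it in these gates. The ratios of poly I:C to control were 0.572 (0.549 to 0.597) in the macrophage gate, 0.555 (0.527 to 0.585) in the T gate, 0.545 (0.490 to 0.606) in the dendritic gate and 0.514 (0.422 to 0.627) in the neutrophil gate. Under the alternatives run, the ratio stayed below 1 in all 4, although cells thinned to 1000 UMIs gave 0.787 in the neutrophil gate. Nfkb2 was past 1.5-fold lower in the neutrophil gate at 0.587 (0.426 to 0.812), from 87.5 and 51.4 CPM, and gave 0.782 to 0.895 in the other gates. In neutrophil-gate cells of no other gate Rel gave 0.539 (0.381 to 0.756) and Nfkb2 0.456 (0.255 to 0.786). Relb, at 48.1, 47.0, 46.7 and 47.3 CPM in the T gate and 33.3, 32.8, 33.4 and 37.2 in the macrophage gate, showed hardly any spread between libraries there. In dendritic cells of no other gate it gave 108, 98.0, 142 and 137 CPM. The combination over phenformin was 1.39 (1.11 to 1.75) in those cells.

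Nfkbia, the feedback IkB, differed from the subunits. It stood at 403 CPM in control, 453 in phenformin, 472 in poly I:C and 446 in the combination in the macrophage gate, and at 324, 429, 461 and 426.5 in the dendritic gate. Control was thus the lowest library in both. The poly I:C ratio was 1.17 (1.14 to 1.20) in the macrophage gate, 1.42 (1.31 to 1.55) in the dendritic gate, 1.13 (1.095 to 1.17) in the T gate and 1.29 (1.21 to 1.38) in the tumour gate, none past 1.5-fold. With TMM scaling the tumour ratio was 1.52, with cells thinned to 1000 UMIs the dendritic ratio was 1.705, and the thinned macrophage and T ratios were 0.991 and 0.994. In the neutrophil gate Nfkbia gave 2589, 2079, 1527 and 2540 CPM, and the ratio of 0.590 (0.557 to 0.625) was past 1.5-fold. In the cells of no other gate it gave 4004, 3565, 3532 and 4178 CPM and a ratio of 0.882 (0.822 to 0.946), so the call was lost where the mixed droplets were left out.

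The nuclear IkB genes had the lowest ratios of the 10 in the whole neutrophil gate. Nfkbiz gave 937 CPM in control, 664 in phenformin, 244 in poly I:C and 371 in the combination, and Nfkbid gave 121, 93.1, 26.0 and 48.9. Each of these genes was lower in both libraries with poly I:C than in both without. The ratios were 0.260 (0.231 to 0.294) for Nfkbiz and 0.215 (0.148 to 0.310) for Nfkbid. In cells of no other gate they were 0.332 (0.283 to 0.388) and 0.278 (0.165 to 0.449), from 1551 and 515 CPM for Nfkbiz and from 193 and 53.7 CPM for Nfkbid, so that Nfkb1 (0.235) and Zfp36 (0.276) were lower there. Nfkbiz was also past 1.5-fold lower in the T gate at 0.486 (0.451 to 0.524), from 115, 94.7, 55.9 and 65.4 CPM, but not in the macrophage gate (0.723, 0.670 to 0.779) or the tumour gate (0.933, 0.844 to 1.03). Nfkbid stayed below 50 CPM in the T and macrophage gates and was not called there, with ratios of 0.518 (0.446 to 0.601) and 0.642 (0.565 to 0.728).

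Tnfaip3 in the neutrophil gate gave 659 CPM in control, 397 in phenformin, 207 in poly I:C and 282.5 in the combination, with a ratio of 0.314 (0.274 to 0.359). In cells of no other gate the values were 938, 675, 383 and 315 CPM and the ratio 0.408 (0.337 to 0.492). Control was the highest library in both sets of cells, and both libraries with poly I:C were lower than both without it. In the T gate, at 438.5, 380, 302 and 352 CPM, the ratio was 0.689 (0.665 to 0.713) and not past 1.5-fold. Zfp36 in the neutrophil gate gave 783, 517, 291 and 317 CPM with a ratio of 0.372 (0.330 to 0.419), and 1087, 686, 300 and 346 CPM with 0.276 (0.225 to 0.338) in cells of no other gate. The macrophage ratio of 0.673 (0.656 to 0.692), from 461, 382, 310 and 340 CPM, was just short of 1.5-fold. In the T gate Zfp36 gave 98.6, 91.5, 112 and 101 CPM and a ratio of 1.13 (1.06 to 1.21), whereas in T cells of no other gate, at 54.7, 54.6, 47.2 and 62.3 CPM, it gave 0.863 (0.774 to 0.961). Nfkbie was not called in any gate, with 102, 86.4, 79.7 and 84.6 CPM in the neutrophil gate and a ratio of 0.784 (0.594 to 1.04). In neutrophil-gate cells of no other gate it gave 0.815 (0.5315 to 1.24). Its tumour-gate ratio of 0.391 (0.221 to 0.678) came from 3.64 and 1.42 CPM, below the filter.

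Counted in neutrophil-gate cells of no other gate, where 9 of the 10 genes passed the filter, 7 were lower in poly I:C (Nfkb1, Nfkb2, Rel, Nfkbiz, Nfkbid, Tnfaip3 and Zfp36), against 28.8% of 2134 features. Over the whole gate the median log2 ratio, with 5 CPM added, was -1.14 for the 10 genes and 0.09 for all features compared. Several other lists differed in the same gate. Of 16 genes that respond early to stimulation or to tissue dissociation, 10 were past 1.5-fold lower and 0 higher, against the 19% and 18.9% of all features, and their summed level was 10440 CPM in control, 9556 in phenformin, 5240 in poly I:C and 7110 in the combination. Of 9 interferon response genes past the filter, 7 were lower and 1 higher, with Rsad2, an antiviral enzyme, at 0.118 (0.102 to 0.137). Their part in the values of the 10 genes, and that of the macrophage RNA in the gate, was not tested. In the same gate Malat1, a nuclear transcript, gave 18648, 18318, 15324 and 17998 CPM. Neat1, another nuclear transcript, gave 1728, 1676, 865 and 986 CPM, so that both libraries with poly I:C were lower, as they were for Nfkb1, Nfkbiz, Nfkbid, Tnfaip3 and Zfp36. Its part in those values was not tested. Ribosomal protein genes took 8.95%, 8.15%, 12.2% and 9.07% of UMIs. The ratio of the interferon regulator Irf7 was 2.22 (2.04 to 2.41) in the T gate, 1.76 (1.57 to 1.98) in the dendritic gate, 1.70 (1.64 to 1.75) in the macrophage gate and 0.766 (0.701 to 0.837) in the tumour gate. Of interferon response genes past the filter, 1 of 5 was higher and 1 lower in the macrophage gate, against 3.31% and 4.3% of features. The dendritic gate had 2 of 4 higher and 0 lower, against 4.7% and 7.45%. In the T gate 1 of 3 was higher and 0 lower, against 5.58% and 6.97%. The tumour gate had 0 of 3 higher and 0 lower, against 1.47% and 11.8%.

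**Figure D2:**
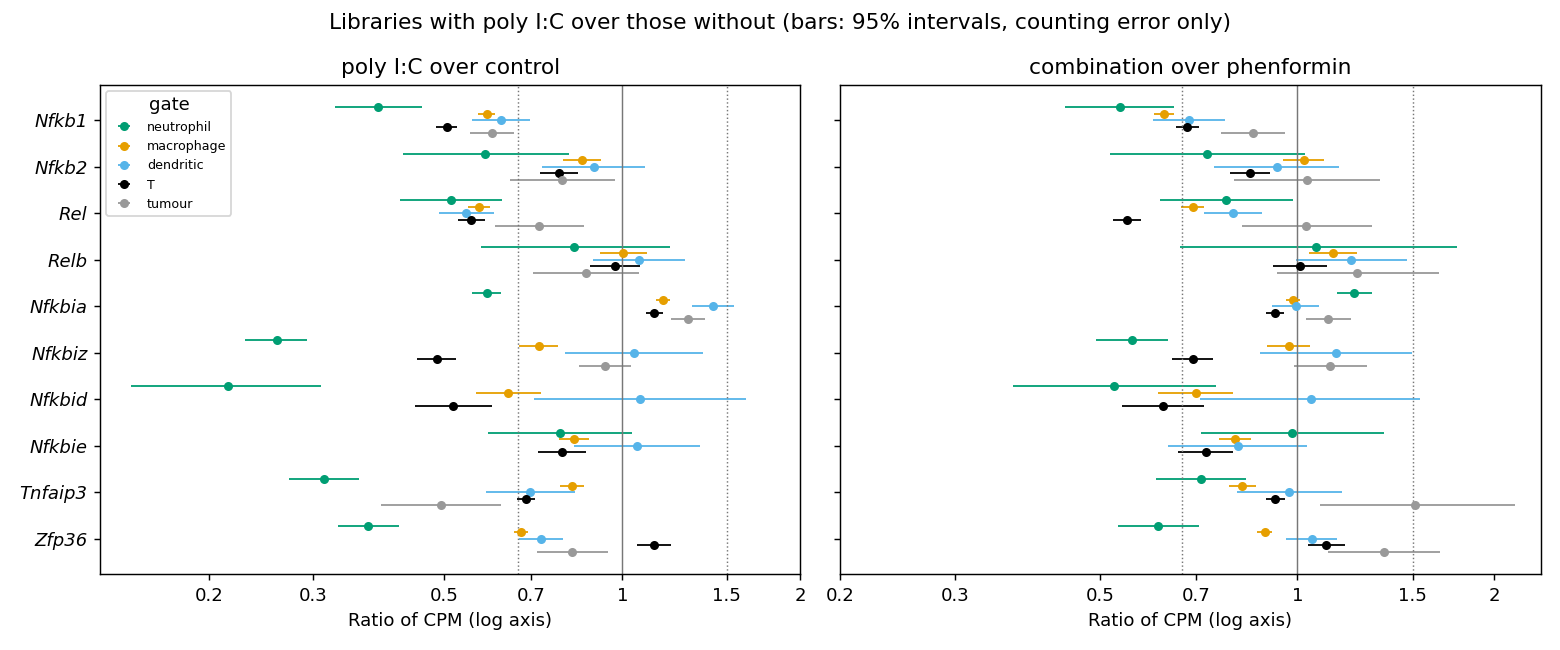
Ratio of CPM (log axis) of the 10 genes (y axis) for poly I:C over control and for the combination over phenformin, coloured by gate, with 95% intervals from counting error only and dotted lines at 1.5-fold; genes with under 60 UMIs in the 2 libraries together are not drawn. Nfkb1 lay below 1 in all 5 gates in both panels, and Nfkbia in poly I:C over control lay above 1 in 4 gates and below it in the neutrophil gate.

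Combination over phenformin sets libraries with and without poly I:C side by side in the presence of phenformin, in 2 other libraries. In the neutrophil gate 4 of 9 genes past the filter were lower (Nfkb1, Nfkbiz, Nfkbid and Zfp36) and 0 higher, against 14.1% and 10% of features. In the macrophage gate 1 of 6 was lower, Nfkb1, against 4.49%, and 0 higher against 3.69%. In the T gate 1 of 8 was lower, Rel, against 1.4%, and 0 higher against 2.92%. In the dendritic gate 0 of 8 were called, against 3.83% lower and 6.58% higher, and in the tumour gate 0 of 3, against 1.38% and 0.968%. Nfkb1 had ratios of 0.535 (0.441 to 0.647) in the neutrophil gate, 0.625 (0.604 to 0.648) in the macrophage gate, 0.682 (0.601 to 0.774) in the dendritic gate, 0.678 (0.651 to 0.707) in the T gate and 0.855 (0.764 to 0.956) in the tumour gate. Rel had 0.549 (0.522 to 0.578) in the T gate and 0.691 (0.663 to 0.721) in the macrophage gate. Nfkbia stood at 0.984 (0.962 to 1.01) in the macrophage gate, 0.925 (0.896 to 0.955) in the T gate and 1.22 (1.15 to 1.30) in the neutrophil gate.

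In neutrophil-gate cells of no other gate 6 of 9 genes past the filter were lower in the combination than in phenformin (Nfkb1, Rel, Nfkbiz, Nfkbid, Tnfaip3 and Zfp36), against 20.7% of features. Tnfaip3 gave 0.466 (0.380 to 0.571) there and 0.712 (0.609 to 0.833) in the whole gate. Nfkbiz gave 0.502 (0.432 to 0.582) and Zfp36 0.503 (0.413 to 0.613) in the cells of no other gate. The same 6 genes were among the 7 that were lower in poly I:C than in control in those cells. The share of all features lower in both comparisons was not computed, so this overlap has no background beside it.

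**Figure D3:**
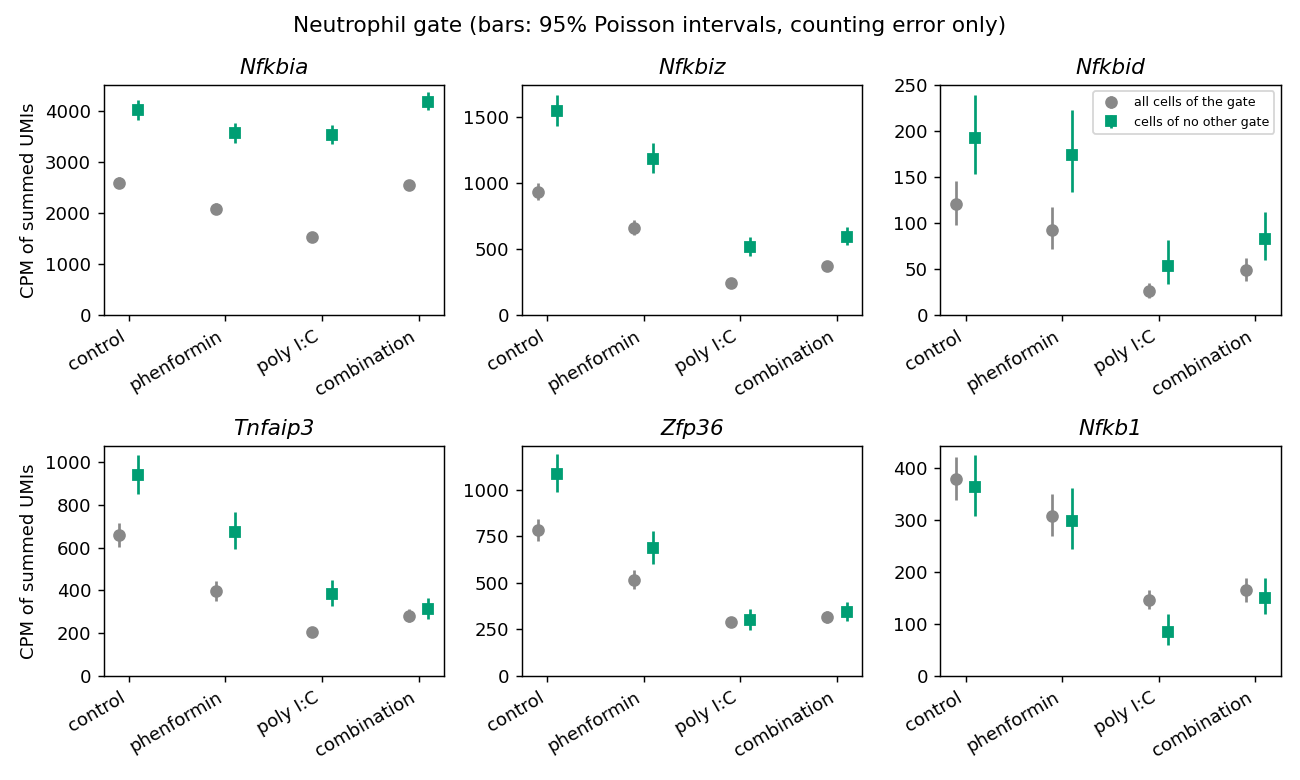
CPM of summed UMIs (linear axis) of 6 genes in the neutrophil gate by library, for all cells of the gate (grey) and for its cells of no other gate (green), with 95% Poisson intervals. Nfkbiz, Nfkbid, Tnfaip3, Zfp36 and Nfkb1 were lower in both libraries with poly I:C in both sets of cells, whereas Nfkbia in poly I:C was 1527 CPM in the whole gate and 3532 CPM in cells of no other gate.

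Phenformin over control, which sets the library with the biguanide alone beside control, gave few differences past 1.5-fold. In the neutrophil gate 3 of 10 genes were lower (Relb, Tnfaip3 and Zfp36), against 8.44% of features lower and 6.12% higher. In its cells of no other gate Zfp36 alone was lower, 1 of 9 genes against 17% of features, at 0.631 (0.539 to 0.738). Relb rested on few UMIs, with a whole-gate ratio of 0.639 (0.387 to 1.03). No gene was called in the other gates. The features lower and higher there were 0.261% and 0.49% in the macrophage gate, 3.16% and 1.77% in the dendritic gate, 0.666% and 0.508% in the T gate, and 0.96% and 0.53% in the tumour gate. Below that threshold, Nfkb1 was lower than control beyond counting error in each whole gate, with ratios of 0.813 (0.683 to 0.967) in the neutrophil, 0.891 (0.863 to 0.921) in the macrophage, 0.818 (0.743 to 0.900) in the dendritic, 0.770 (0.741 to 0.8002) in the T and 0.764 (0.687 to 0.848) in the tumour gate. In neutrophil-gate cells of no other gate the ratio was 0.823 with an interval that included 1 (0.638 to 1.06), and without very deep droplets it was 0.977. Nfkbia was higher beyond counting error in the macrophage (1.13, 1.10 to 1.16), dendritic (1.32, 1.22 to 1.43), T (1.14, 1.10 to 1.18) and tumour (1.09, 1.004 to 1.19) gates. This comparison and that of poly I:C over control share the control library.

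Combination over poly I:C sets the library with both agents beside the library with the RNA mimic alone. In the neutrophil gate 2 of 8 genes past the filter were higher, Nfkbia at 1.66 (1.58 to 1.75) and Nfkbiz at 1.52 (1.33 to 1.74), and 0 lower, against 10.1% of features higher and 15.5% lower. In cells of no other gate these ratios were 1.18 (1.11 to 1.26) and 1.15 (0.966 to 1.38), and neither was called; for Nfkbiz the ratio was 0.966 without very deep droplets. The 3 called there of 9 were Nfkb1, Nfkb2 and Nfkbid, all higher, against 17.6% of features, and the interval of Nfkb1 was 1.17 to 2.71 while those of Nfkb2 (0.928 to 2.92) and Nfkbid (0.905 to 2.71) included 1. No gene was called in the other gates, where features higher and lower came to 1.06% and 1.52% in the macrophage, 4.22% and 2.86% in the dendritic, 0.428% and 2.6% in the T and 0.327% and 0.29% in the tumour gate. In the dendritic gate Rel, at 351 CPM in control, 315 in phenformin, 191 in poly I:C and 251 in the combination, gave 1.31 (1.16 to 1.48), and in dendritic cells of no other gate, at 428, 391, 251 and 392 CPM, it gave 1.56 (1.34 to 1.83). In those cells the combination was level with phenformin, at 1.003 (0.884 to 1.14), and poly I:C alone was low. Tnfaip3 gave 1.06 (0.868 to 1.30) in the whole dendritic gate and 1.64 (1.21 to 2.23), from 66.5 and 109 CPM, in its cells of no other gate. Nfkbiz gave 2.03 (1.09 to 3.90) there, from 17 and 32 UMIs, below the filter.

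The gates mix cell states whose shares differed between libraries, so the genes were also read in narrower groups. The T gate held 892, 884, 1650 and 1973 cells with a Cd8 UMI and no Foxp3 UMI in control, phenformin, poly I:C and combination. Nfkb1 was lower in poly I:C than in control in these cells (330 and 174 CPM; ratio 0.526, 0.4999 to 0.554), in those with a Foxp3 UMI, the regulatory T cell factor (461 and 235 CPM; 0.510, 0.457 to 0.568), and in those with a Cd4 UMI alone (516 and 303 CPM; 0.587, 0.514 to 0.669). In the macrophage gate it was lower in cells with at least 5 UMIs of the complement genes C1qa, C1qb and C1qc (261 and 165 CPM; 0.631, 0.604 to 0.659) and in cells with none (338 and 195 CPM; 0.577, 0.526 to 0.633). Nfkb1 was thus past 1.5-fold lower in each of these 5 groups. Nfkbia was higher in poly I:C beyond counting error in all 5, from 1.11 (1.01 to 1.22) in the Cd4 cells to 1.37 (1.30 to 1.44) in the Cd8 cells. These groups include cells that passed another gate. Their share in control and poly I:C was 6.50% and 12.55% in the Cd8, 10.6% and 24.7% in the Foxp3 and 9.55% and 18.75% in the Cd4 cells. Over all T-gate cells of no other gate Nfkbia gave 1.06 (1.015 to 1.10), and over those of the macrophage gate 1.165 (1.13 to 1.20). Across libraries Rel ranged from 88.2 to 174 CPM in the Cd8, 234 to 346 in the Foxp3 and 231 to 300 in the Cd4 cells. For Rel no pair of libraries was thus 1.5-fold apart in the Foxp3 or the Cd4 cells. Nfkbiz ranged from 31.0 to 64.9, 120 to 205 and 141 to 181 CPM in the same order, and its Cd4 range stayed under 1.5-fold. The part of the mix of T cells in the T-gate ratios of Rel and Nfkbiz was not tested.

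Dendritic cells with at least 2 UMIs of Ccr7 and Fscn1, genes of migratory dendritic cells, numbered 110 in control, 72 in phenformin, 66 in poly I:C and 55 in the combination. Rel in them stood at 625, 722, 346 and 708 CPM, so that poly I:C alone was low, with ratios of 0.553 (0.488 to 0.626) over control and 2.05 (1.78 to 2.36) for the combination over poly I:C. Relb stood at 176, 180.5, 178 and 275 CPM, so that the combination alone was high, at 1.54 (1.24 to 1.91) over poly I:C. On average over the libraries Relb did not exceed 59.05 CPM in the other narrower groups, and dendritic cells with a Siglech UMI, a gene of plasmacytoid dendritic cells, had 13.1 to 22.0 CPM of it. Rel averaged 600 CPM in the migratory group. It averaged 96.6 CPM in the Siglech cells and 99.9 CPM in remaining dendritic cells with an Xcr1 or Clec9a UMI, the lowest among the narrower groups. The rest of the dendritic gate averaged 240 CPM of Rel. Of the migratory group 23.6% to 40.9% of cells passed another gate, the highest share being in poly I:C.

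**Figure D4:**
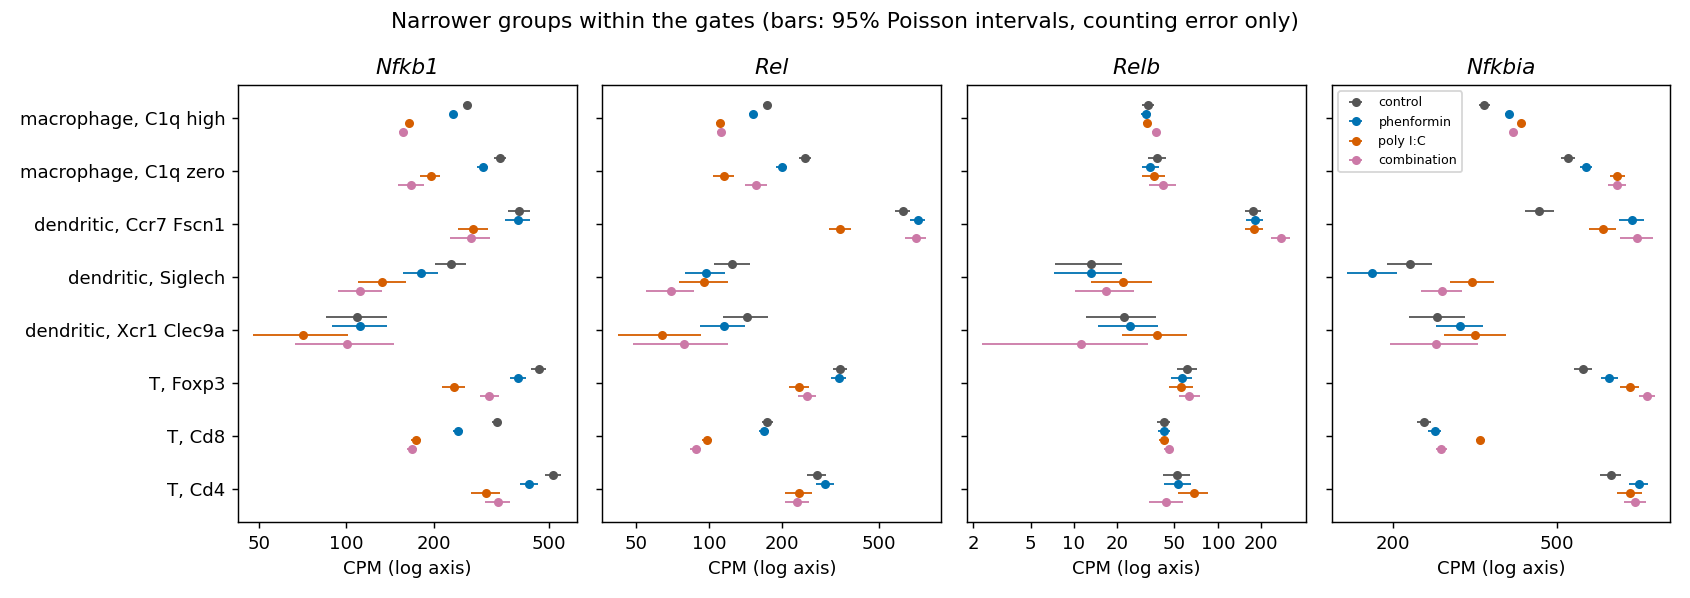
CPM (log axis) of Nfkb1, Rel, Relb and Nfkbia in 8 narrower groups of cells (y axis), with 1 point per library and 95% Poisson intervals. Nfkb1 in poly I:C lay below control in all 8 groups, and Relb was highest in the Ccr7 Fscn1 dendritic group in all 4 libraries.

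Other genes of the pathway were read from a list of 25 that carry the signal to NF-kB or end it, such as IkB kinases, TRAF adaptors and deubiquitinases. For poly I:C over control 0 were past 1.5-fold higher in any gate, and 6 of 10 past the filter were lower in the neutrophil gate, 1 of 10 in the macrophage gate, 4 of 13 in the dendritic gate, 2 of 11 in the T gate and 2 of 2 in the tumour gate. The lower shares of all features were, in the same order, 19%, 4.3%, 7.45%, 6.97% and 11.8%. Median log2 ratios of the genes past the filter were -0.64 in the neutrophil gate and -0.32 in the T gate, against 0.09 and -0.09 over all features compared. Birc3, a ubiquitin ligase induced by NF-kB, had ratios of 0.379 (0.305 to 0.471) in the neutrophil, 0.654 (0.612 to 0.6995) in the macrophage and 0.602 (0.551 to 0.656) in the T gate. Tnip3, which encodes a partner of the Tnfaip3 protein, gave 0.396 (0.2997 to 0.518) and Map3k14, the kinase of the alternative pathway, 0.556 (0.446 to 0.688) in the dendritic gate. For the combination over poly I:C Birc3 was the neutrophil-gate gene of this list with the largest difference, at 2.30 (1.87 to 2.83).

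Genes known to be induced by NF-kB, a list of 30, were read in poly I:C over control. Of those past the filter, 9 of 16 were higher and 0 lower in the T gate, against 5.58% and 6.97% of features, and 10 of 21 were higher and 1 lower in the dendritic gate, against 4.7% and 7.45%. The median log2 ratios were 0.62 and 0.48, against -0.09 and -0.03 over all features. Macrophage markers moved with these counts. They summed to 1102 CPM in control, 1330 in phenformin, 5491 in poly I:C and 3465 in the combination in the T gate, and to 1029, 1086, 3353 and 4366 in the dendritic gate. In cells of no other gate they summed to 157, 160, 360 and 371 CPM and to 213, 227, 260 and 353. In those cells, a reading chosen after seeing the data, 3 of 11 genes past the filter were higher and 1 lower in the T gate, against 2.05% and 7.44% of features. In the dendritic gate 4 of 17 were higher and 0 lower there, against 5.59% and 14%. The median log2 ratios were 0.26 and 0.13, against -0.10 and -0.06. Vcam1, an adhesion molecule, gave 3.57 (3.34 to 3.82) in the T gate, from 68.4 and 244 CPM, and 1.52 (1.21 to 1.93) in its cells of no other gate, from 9.27 and 14.1 CPM. Over whole gates, the macrophage gate had 3 of 23 higher and 1 lower, against 3.31% and 4.3% of features. The tumour gate had 1 of 7 higher and 0 lower, against 1.47% and 11.8%. The neutrophil gate had 3 of 24 higher and 14 lower, against 18.9% and 19%. The neutrophil chemokine Cxcl1 gave 23.9 (15.7 to 38.1) in the dendritic gate, from 6.99 and 167 CPM, 3.44 (3.15 to 3.76) in the macrophage gate and 1.59 (1.48 to 1.71) in the tumour gate. Ccl5, a T cell chemokine, gave 4.24 (4.16 to 4.31) in the T gate and 4.77 (4.68 to 4.86) in its cells of no other gate. Neutrophil markers summed to 50.8 CPM in the dendritic gate in control and 842 in poly I:C, and to 6.204 and 2.73 in its cells of no other gate, where Cxcl1 gave 9.73 (6.05 to 16.4). The part of the remaining macrophage markers in these values, and that of the mix of T cells in the T gate, was not tested. In the neutrophil gate Ccl4, a macrophage and T cell chemokine, gave 0.222 (0.209 to 0.236).

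Of 10 genes that act with Zfp36 in transcript decay, 0 were higher in poly I:C than in control in any gate, and 2 of 8 past the filter were lower in the neutrophil gate, 1 of 8 in the macrophage gate, 3 of 8 in the dendritic gate, 2 of 9 in the T gate and 3 of 9 in the tumour gate. Beside these stand the same lower shares of all features, from 4.3% in the macrophage gate to 19% in the neutrophil gate. Zfp36l1, a relative of Zfp36 that also binds AU-rich elements, was past 1.5-fold lower in the 4 immune gates, with ratios of 0.575 (0.475 to 0.696) in the neutrophil, 0.483 (0.466 to 0.4996) in the macrophage, 0.491 (0.447 to 0.539) in the dendritic and 0.462 (0.441 to 0.484) in the T gate. Zc3h12a, which encodes an endonuclease of inflammatory transcripts, gave 0.423 (0.336 to 0.531) in the neutrophil gate.

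Across the 20 pools of 5 gates and 4 libraries, which share libraries and differ in depth, log2 levels of Nfkb2 and Tnfaip3 had a Pearson correlation of 0.939 and those of Rel and Nfkb2 one of 0.922, while Relb and Nfkbiz gave 0.054. Among 5584 other features with a mean of at least 20 CPM, the pattern most like the mean of the 10 genes was that of Birc3 (0.988), followed by Vasp, an actin regulator (0.985), the chromatin remodeller Chd7 (0.985), the antiproliferative gene Btg1 (0.982) and the kinase gene Ptk2b (0.980). These values describe the pools and have no p-value.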

How the data were processed

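The authors deposited raw UMI counts per gene and barcode, produced by Cell Ranger, version 3.1.0, per the file headers, with mm10 and GRCm38 listed as builds, per the submitters' processing notes. From these counts, barcodes showing 200 genes or more, with mitochondrial UMIs below 20%, were sorted into the 5 gates and summed per gate and library. Sums were scaled to CPM of the gate, with exact Poisson intervals. Ratios of 2 libraries have the exact interval conditional on both counts. Depth is given with the gates. All 10 genes are named in every gate; of each list, up to 3 genes with the largest log2 ratio past both filters are named, and the 5 features most like the 10 genes. Genes and lists were chosen with earlier results of these data known. No doublet caller was run; cells of no other gate and cells without very deep droplets were used as alternatives. Between 27 and 43 barcodes per library, 0.495% to 0.574%, also occur in another library. The calculation was tested on simulated data. Tools were Python 3.11.15, numpy 2.4.6, scipy 1.17.1, pandas 2.3.3, matplotlib 3.10.9 and, for TMM factors, edgeR 4.0.16 in R 4.3.3. Positions are from GENCODE vM21, and promoter windows from RefSeq on GRCm38.p6. Nfkb1, Relb and Nfkbiz have no window in the table used.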

Additional observations from a re-analysis of the deposited data

Results flagged for a closer look

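Listed here are ratios of a gene that lay on opposite sides of 1 between gates or between backgrounds, with both intervals leaving out 1 and at least 1 of the ratios past 1.5-fold at 50 CPM and 30 UMIs; smaller opposite differences are not listed, and none of these differences was tested, since each rests on 1 library per treatment. For poly I:C over control Nfkbia was 0.590 in the neutrophil gate and 1.17 in the macrophage, 1.42 in the dendritic, 1.13 in the T and 1.29 in the tumour gate. For the combination over poly I:C it was 1.66 in the neutrophil gate against 0.946 in the macrophage gate, and the same 1.66 against 0.929 in the T gate. Within the neutrophil gate Nfkbia in phenformin over control was 0.803, against 1.66 in the combination over poly I:C, and in poly I:C over control 0.590, against 1.22 in the combination over phenformin. Phenformin over control was 0.709 for Nfkbiz and 0.602 for Tnfaip3 in that gate, against 1.52 and 1.37 in the combination over poly I:C. Zfp36 was 1.13 in the T gate and 0.372 in the neutrophil gate for poly I:C over control, and 1.11 and 0.613 for the combination over phenformin. In neutrophil-gate cells of no other gate the poly I:C over control ratio of Nfkbia was 0.882 and the combination over poly I:C ratio of Tnfaip3 was 0.821.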

How the results depend on the processing

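Under 8 alternatives, 20 counts of called genes and 1394 ratios were recomputed; 1100 ratios stayed within their interval. On the other side of 1 from the reported value were 137, 41 of them with thinning; of these, 28 had a reported interval that left out 1, and 2 had been past 1.5-fold: Nfkbia in poly I:C over control, neutrophil gate, gave 1.03 in cells thinned to 1000 UMIs, and Nfkbiz in the combination over poly I:C, neutrophil gate, gave 0.966 without very deep droplets. In the neutrophil gate the 3 genes called for phenformin over control became 1 with cells in 1 gate only, with the mean over cells and with TMM; the 8 for poly I:C over control became 4 when thinned; and the 2 for the combination over poly I:C became 1 with gate thresholds doubled or without very deep droplets, 0 with the mean over cells or thinned, and 4 with TMM. NF-kB target genes higher in poly I:C went from 9 to 3 in the T gate and from 10 to 4 in the dendritic gate with cells in 1 gate only, chosen after seeing the data. In the dendritic gate phenformin over control went from 0 to 1 with cells in 1 gate only or doubled thresholds and to 3 thinned, poly I:C over control from 2 to 4 thinned, the combination over poly I:C from 0 to 2 with cells in 1 gate only and to 1 with doubled thresholds or thinned, and the combination over phenformin from 0 to 1 with cells in 1 gate only, doubled thresholds, the mean over cells, thinning or TMM. In the T gate poly I:C over control went from 3 to 5 thinned, and the combination over phenformin from 1 to 2 with cells in 1 gate only, doubled thresholds or a filter of 10 CPM and 10 UMIs, to 3 thinned or without very deep droplets, and to 4 with the mean over cells. In the tumour gate the filter of 10 CPM and 10 UMIs gave 2 for phenformin over control (from 0), 2 for poly I:C over control (from 1) and 1 for the combination over phenformin (from 0), and thinning gave 1 for the combination over poly I:C and 1 for the combination over phenformin (from 0 each). The stricter cell filter changed 0 of the 20 counts by over 1.5 times. The cause of these shifts was not tested. For most of these settings the share of all features called was not computed. The counts thus show how calls moved with processing, and not how the genes stood beside other features. TMM moved log2 ratios by 0.23 in the neutrophil gate for the combination over poly I:C, 0.12 in the T gate and 0.24 in the tumour gate for poly I:C over control, and 0.14 in the tumour gate for phenformin over control. No paired analysis was possible because there is 1 library per treatment, and for the same reason no library could be left out.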

Other observations

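B cells, taken as cells outside the 5 gates with at least 2 UMIs of Cd79a, Cd79b and Ms4a1, numbered 82 in control, 92 in phenformin, 79 in poly I:C and 173 in the combination. Rel, which is needed for B cell proliferation, stood at 155.5, 340, 90.8 and 442 CPM in them, so that both libraries with phenformin were high. Nfkb1 stood at 181.5, 205, 47.5 and 164 CPM, with poly I:C alone low. Zfp36 stood at 554, 318, 591 and 338 CPM, so that both libraries with phenformin were low. The median depth of these cells was 4510.5, 4842.5, 7160 and 2598 UMIs, and its part in these values was not tested.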
